A study of Mus musculus with 6 samples.

Results

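The miR-181 family was followed here as every mature miRNA named miR-181a, miR-181b, miR-181c or miR-181d in the deposited count tables, from all hairpins and both hairpin arms. These were 10 of the 1900 mature miRNA names in the tables, and they filled 12 of the 2035 miRNA rows, since miR-181a-5p and miR-181b-5p each come from a hairpin on chromosome 1 and another on chromosome 2. Such rows share reads and were summed. Small RNA of the hippocampus had been sequenced in 6 libraries, each from RNA pooled from 3 male mice. In 3 libraries (Dicer1-ifKO) the C57BL/6 mice, aged 3 months, were homozygous for the floxed Dicer1 allele (Dicer1 flox/flox) and carried the CaMKIIa-creERT2 transgene, an inducible recombinase whose promoter is active in excitatory neurons of the forebrain. In the other 3 libraries (WT) the mice had the same age, strain and Dicer1 flox/flox alleles and were labelled wild-type for the transgene, and both genotypes were taken 3 weeks after tamoxifen. Cells outside the promoter's reach keep Dicer1 in both genotypes, and in these tissue samples fewer cells of a type and less RNA per cell cannot be told apart.

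A miRNA gene is transcribed as a longer RNA that folds into a hairpin. Drosha frees the hairpin and Dicer, the product of Dicer1, cuts off its loop, which leaves a duplex of a 5p and a 3p arm. One arm is usually kept by an Argonaute protein and finds target mRNAs through its seed, while the other is mostly degraded. The miR-181 family is known from T cell development, where miR-181a sets the sensitivity of the antigen receptor, and from the brain, where miR-181a was described in rat neurons as a repressor of the AMPA receptor subunit GluA2.

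The sequences show what the members share and where they part. They are given 5′ to 3′ from RefSeq (GRCm38.p6), with the seed, bases 2 to 8, in capitals. The 4 arms on the 5p side carry 1 common seed, and the 3p arms shown are those with enough reads to be compared with them.
miR-181a-5p: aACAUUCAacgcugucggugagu
miR-181b-5p: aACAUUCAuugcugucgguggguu
miR-181c-5p: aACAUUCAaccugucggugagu
miR-181d-5p: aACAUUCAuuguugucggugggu
miR-181a-1-3p: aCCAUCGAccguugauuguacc
miR-181a-2-3p: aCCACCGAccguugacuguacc
miR-181c-3p: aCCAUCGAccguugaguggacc
miR-181b-1-3p: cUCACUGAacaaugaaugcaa

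Among the 1679 mature mouse names in the RefSeq table, the seed of the 5p arms occurred in these 4 and in 0 others. Counted from the 5′ end, miR-181b-5p differs from miR-181a-5p by A9U, C10U and A21G and by 1 added base at its end. miR-181d-5p differs from miR-181b-5p by C12U and is 23 bases long against 24. miR-181c-5p is miR-181a-5p with 1 base removed, at position 11. The 3p arms are less alike: miR-181c-3p has the seed of miR-181a-1-3p and differs from it by U16G and U19G, whereas miR-181a-2-3p differs from miR-181a-1-3p by U5C, inside the seed, and by U16C. With such close sequences, a read with an error could be counted for a neighbour. The counts of miR-181d-5p and miR-181c-5p, beside the far more abundant miR-181b-5p and miR-181a-5p, are uncertain to that extent, as are those of the rare miR-181b 3p arms.

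The 6 hairpins form 3 pairs in GRCm38. Mir181a-1 (chromosome 1, 137966455 to 137966541, plus strand) and Mir181b-1 (137966639 to 137966718) lie 97 bases apart in an intron of the noncoding transcript Gm4258 in GENCODE M21, and Mir181b-1 lies in an exon of the lincRNA A430106G13Rik. Mir181a-2 (chromosome 2, 38852735 to 38852810, plus strand) and Mir181b-2 (38853830 to 38853918) lie 1019 bases apart, opposite to an intron of Nr6a1, which encodes an orphan nuclear receptor and is transcribed from the minus strand. Mir181c (chromosome 8, 84178873 to 84178961, minus strand) and Mir181d (84178716 to 84178787) lie 85 bases apart in an intron of Nanos3, a gene of germ cells. The deposited rows of the mature arms have the RefSeq positions, except that the row of miR-181a-2-3p starts and ends 3 bases later, the rows of miR-181b-5p end 1 base earlier and that of miR-181b-1-3p ends 2 bases earlier.

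The 2 loci of a mature miRNA could not be told apart. In WT replicate 1, miR-181a-5p had 236763 counts on chromosome 1 and 236409 on chromosome 2, and over the 6 libraries the share on chromosome 1 lay between 49.9% and 50.1%. These counts differed by no more than a random division of the same reads would give (chi-square p = 0.75 over 6 libraries). For miR-181b-5p the share on chromosome 1 lay between 49.4% and 49.9%, a little below an even split in all 6 libraries (chi-square p = 0.17 over 6 libraries). This chi-square takes no account of direction, so it does not test the shift shared by the libraries. The deposited span of Nr6a1 showed the same reads again, although Nr6a1 runs on the opposite strand, so the counts take no account of strand. Its longest row held 238336, 302345 and 232234 counts in Dicer1-ifKO replicates 1, 2 and 3, against 250774, 271743 and 284807 in WT replicates 1, 2 and 3. All but 60 of its 1580239 counts lay in the miR-181 rows inside it, which leaves 9, 11 and 11 counts in Dicer1-ifKO replicates 1, 2 and 3, against 6, 15 and 8 in WT replicates 1, 2 and 3.

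miR-181a-5p held most of the family's reads. It had 448691, 574225 and 440376 counts in Dicer1-ifKO replicates 1, 2 and 3, against 473172, 513004 and 531439 in WT replicates 1, 2 and 3. That was 91.3% ± 0.40 of all miR-181 counts in Dicer1-ifKO and 90.7% ± 1.01 in WT (SD, n = 3 each). miR-181b-5p followed with 4.91% ± 0.39 in Dicer1-ifKO and 5.49% ± 0.64 in WT, and miR-181c-5p with 2.92% ± 0.11 in Dicer1-ifKO and 2.85% ± 0.30 in WT. miR-181d-5p, made beside miR-181c-5p, was rare, at 0.19% ± 0.015 in Dicer1-ifKO and 0.26% ± 0.042 in WT. Reads of the common seed therefore came almost wholly from 3 of the 4 arms that carry it.

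The 3p arms together made up 0.65% ± 0.014 of the family in Dicer1-ifKO and 0.71% ± 0.034 in WT (SD, n = 3 each). The most abundant was miR-181a-1-3p, with 1931, 2332 and 1724 counts in Dicer1-ifKO replicates 1, 2 and 3, against 2015, 2182 and 2499 in WT replicates 1, 2 and 3. Its partner from the other hairpin, miR-181a-2-3p, had 674, 905 and 750 counts in Dicer1-ifKO libraries, against 719, 840 and 820 in WT libraries. These arms are unique to their hairpins, and the chromosome 1 arm exceeded the chromosome 2 arm in every library, by 2.58 ± 0.28 times in Dicer1-ifKO and 2.82 ± 0.23 times in WT. Since the deposited row of miR-181a-2-3p lies 3 bases later than its RefSeq position, some of its reads may have been missed. The effect of that shift on this ratio was not tested. miR-181b-1-3p had 42, 31 and 37 counts in Dicer1-ifKO replicates 1, 2 and 3, against 33, 23 and 39 in WT replicates 1, 2 and 3. The other arms were at the edge of detection: miR-181b-2-3p had 0 to 3 counts and miR-181d-3p 1 to 3 counts in each library of either genotype. A count of 0 for miR-181b-2-3p allows a share of up to 0.00013% of the miRNA counts in Dicer1-ifKO replicate 1 and up to 0.00011% in WT replicate 1, from counting error alone.

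**Figure D1:**
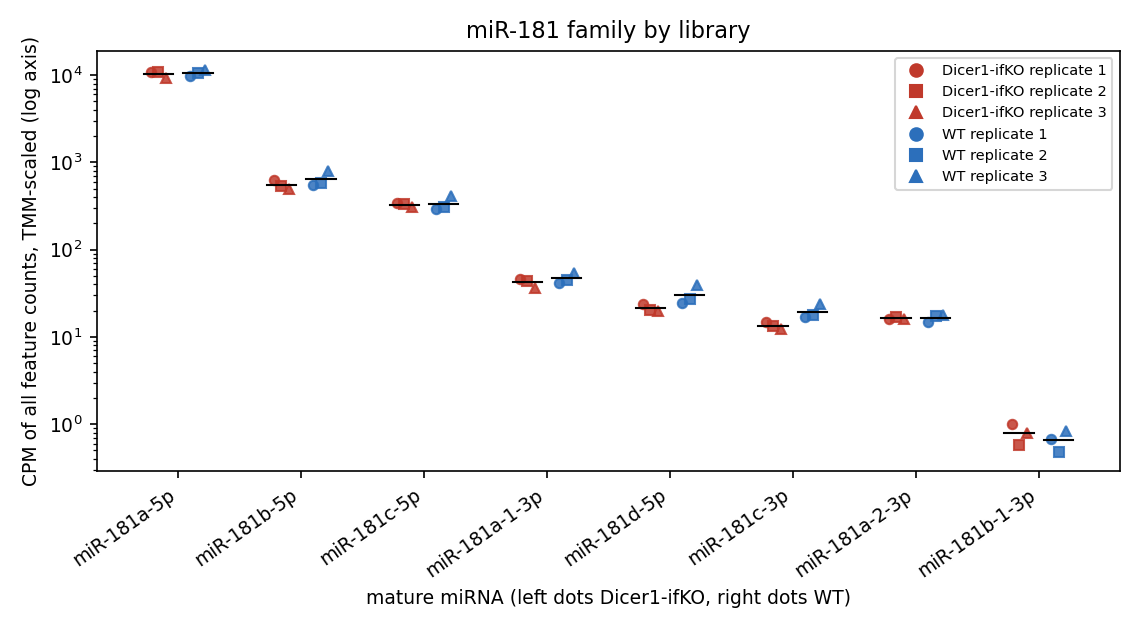
Level of the 8 miR-181 members with enough reads to be tested, in CPM, the counts per 1000000 counts of all features after TMM scaling, on a log axis. Each symbol is a library, Dicer1-ifKO left and WT right, and the line is the mean. The family spans from 10309 CPM for miR-181a-5p to 0.79 CPM for miR-181b-1-3p in Dicer1-ifKO, and from 10610 to 0.67 CPM in WT.

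As a share of all miRNA counts, in which each place of the genome was counted once, miR-181a-5p stood first in all 6 libraries. It took 19.8%, 21.3% and 18.8% of the miRNA counts in Dicer1-ifKO replicates 1, 2 and 3, against 17.7%, 18.03% and 17.0% in WT replicates 1, 2 and 3. The next, miR-26a-5p, took 10.1% ± 0.19 in Dicer1-ifKO and 11.5% ± 0.47 in WT (SD, n = 3 each). The ranges of the 2 miRNAs did not overlap in either genotype, and miR-181a-5p exceeded miR-26a-5p by 1.90 to 2.12 times in Dicer1-ifKO libraries and by 1.44 to 1.64 times in WT libraries. Below them came miR-22-3p before miR-127-3p in Dicer1-ifKO and miR-127-3p before miR-22-3p in WT, with no overlap of their ranges in either genotype, then, in the order of WT, miR-125a-5p, miR-125b-5p, miR-434-3p, let-7c-5p, miR-27b-3p and miR-128-3p. In WT the last 4 of these could not be ordered one against the next, since the ranges of neighbours overlapped.

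**Figure D2:**
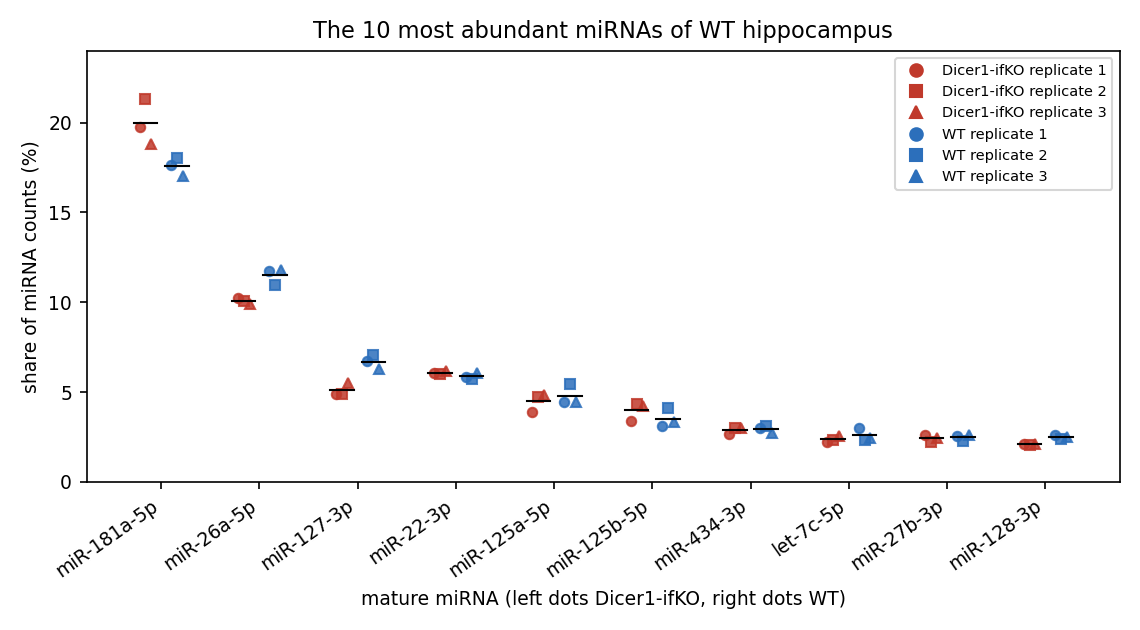
Share of miRNA counts, in percent, of the 10 most abundant miRNAs of WT hippocampus in each library (Dicer1-ifKO left, WT right, line at the mean). miR-181a-5p lies at 18.8% to 21.3% in Dicer1-ifKO and at 17.0% to 18.03% in WT, above every other miRNA.

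Of the other members, miR-181b-5p ranked 18 in both genotypes by its mean share, at 1.07% ± 0.088 in Dicer1-ifKO and 1.06% ± 0.10 in WT. miR-181c-5p ranked 27 in Dicer1-ifKO and 30 in WT. The least abundant 5p arm, miR-181d-5p, ranked 125 in Dicer1-ifKO and 109 in WT, below miR-181a-1-3p at rank 84 in Dicer1-ifKO and 87 in WT. Within the family the ranges of neighbours in this order did not overlap in WT. In Dicer1-ifKO they overlapped between miR-181d-3p and miR-181b-2-3p. miR-181c-3p and miR-181a-2-3p changed places: miR-181c-3p had 0.0246% to 0.0272% of the miRNA counts and miR-181a-2-3p 0.0297% to 0.0336% in Dicer1-ifKO, against 0.0303% to 0.0354% for miR-181c-3p and 0.0262% to 0.0295% for miR-181a-2-3p in WT.

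The comparison of the genotypes asks how these miRNAs stood after Dicer1 was inactivated in excitatory neurons. Scaled to all small RNA features, no member of the family changed by the test used. Of the 8 members that passed the filter on low counts, 0 fell and 0 rose (edgeR quasi-likelihood test, Benjamini-Hochberg adjustment over 6502 features, adjusted p of 0.05), while 6.88% of the 509 tested miRNAs were called and all of those were lower. DESeq2 also called 0 members. At an unadjusted p of 0.05 by edgeR, 2 members were lower and 0 higher, against 32% of all tested miRNAs lower. The median log2 change of the 8 was -0.09, beside -0.25 for all tested miRNAs and -0.03 for the other features. miR-181b-2-3p and miR-181d-3p had too few counts to be tested.

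miR-181a-5p stood at 10795, 10801 and 9332 CPM in Dicer1-ifKO replicates 1, 2 and 3, against 9681, 10681 and 11467 CPM in WT replicates 1, 2 and 3. The groups overlapped, and the mean of Dicer1-ifKO was 0.97 times that of WT. Its log2 change was -0.04 ± 0.12 (SE), with a 95% interval of -0.30 to 0.22 and an adjusted p of 0.99 by edgeR. A fall as large as the median fall of all tested miRNAs lies inside that interval. miR-181c-5p was similarly placed, at 339, 336 and 310.5 CPM in Dicer1-ifKO libraries, against 292, 305 and 408 CPM in WT libraries, a log2 change of -0.03 with an interval of -0.36 to 0.30. For miR-181b-5p the values were 634, 541 and 489 CPM in Dicer1-ifKO, against 557, 584 and 795 CPM in WT, with a log2 change of -0.22 (95% interval -0.57 to 0.13). Its WT mean was set by WT replicate 3, and without that library the log2 change was 0.0051.

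The lowest values relative to WT were those of miR-181c-3p and miR-181d-5p, neighbours on chromosome 8. miR-181c-3p had 14.8, 13.3 and 12.2 CPM in Dicer1-ifKO replicates 1, 2 and 3, against 16.9, 17.9 and 23.8 CPM in WT replicates 1, 2 and 3. All 3 Dicer1-ifKO libraries lay below all WT libraries, but with a log2 change of -0.54 ± 0.18 (SE) the member was not called (edgeR, adjusted p = 0.29). miR-181d-5p had 23.9, 20.4 and 19.7 CPM in Dicer1-ifKO, against 24.7, 27.0 and 38.9 CPM in WT. Here too the groups did not overlap, and edgeR gave -0.50 ± 0.19 (SE) on the log2 scale at an adjusted p of 0.43, short of a call. Among all tested miRNAs 34.4% were lower and 2.36% higher with no overlap between the groups. Both values rest in part on WT replicate 3: without it the log2 changes were -0.33 for miR-181c-3p and -0.23 for miR-181d-5p.

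The 3p arms of the miR-181a hairpins did not pass either. miR-181a-1-3p averaged 42.3 ± 5.15 CPM in Dicer1-ifKO and 46.9 ± 6.47 CPM in WT, and miR-181a-2-3p averaged 16.4 ± 0.58 CPM in Dicer1-ifKO and 16.6 ± 1.67 CPM in WT (SD, n = 3 each). Their log2 changes were -0.15 and -0.02. The rare miR-181b-1-3p, with a log2 change of 0.24 (95% interval -0.35 to 0.83), was the only tested member above 0 on this scale. With the scaling set by the miRNA features, which moved the median of all tested miRNAs to 0.015, 2 of the 8 members lay below 0, namely miR-181c-3p (log2 -0.27) and miR-181d-5p (-0.23), and miR-181a-5p stood at 0.22.

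**Figure D3:**
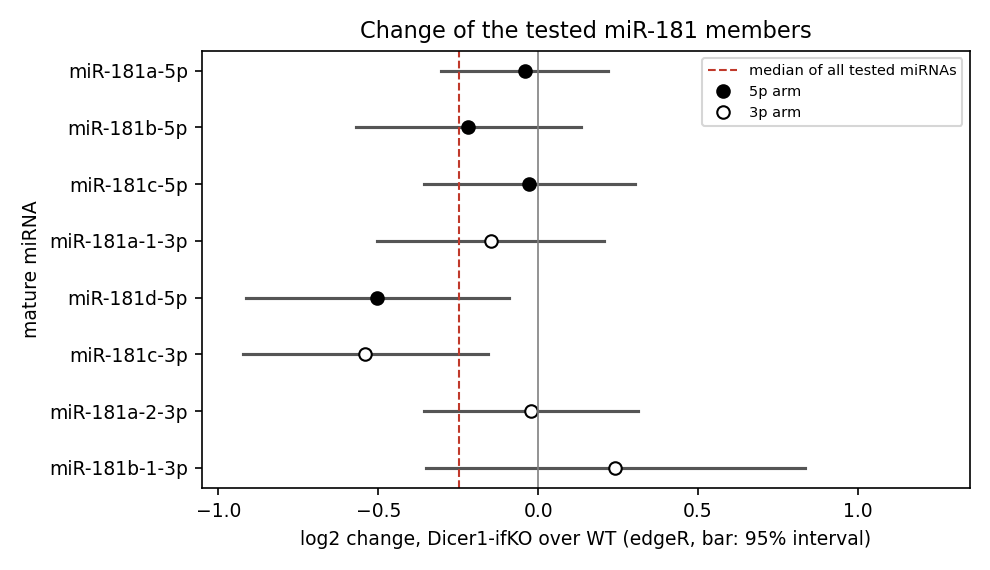
Log2 change of the 8 tested miR-181 members, Dicer1-ifKO over WT, with 95% intervals from edgeR. Filled points are 5p arms and open points 3p arms. The dashed line is the median of all tested miRNAs at -0.25, and miR-181c-3p (-0.54) and miR-181d-5p (-0.50) lie farthest below 0.

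The libraries of a genotype kept much the same order from member to member. Among the 8 tested members, Dicer1-ifKO replicate 3 was the lowest of its group in 7, against 32.8% of all tested miRNAs, and WT replicate 3 was the highest of its group in 8, against 69.0% of all tested miRNAs. Dicer1-ifKO replicate 1 was the highest of its group in 6, against 61.1% of all tested miRNAs, and WT replicate 1 was the lowest of its group in 7, against 50.1% of all tested miRNAs. The coefficient of variation of miR-181a-5p was 8.21% in Dicer1-ifKO and 8.44% in WT, and that of miR-181b-1-3p, with far fewer counts, was 27.0% in Dicer1-ifKO and 27.3% in WT. For miR-181a-2-3p it was 3.56% in Dicer1-ifKO and 10.02% in WT.

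Measured as a share of miRNA counts, the family was higher in Dicer1-ifKO. It took 21.7%, 23.3% and 20.6% in Dicer1-ifKO replicates 1, 2 and 3, against 19.4%, 19.7% and 19.0% in WT replicates 1, 2 and 3. The groups did not overlap, and the difference of 2.50 percentage points had a two-sided exact permutation p of 0.1, the smallest that 3 against 3 libraries can give, so this test could not pass 0.05. miR-181a-5p carried 2.40 of these points. Single members with no overlap were higher for miR-181a-5p, miR-181a-2-3p and miR-181c-5p and lower for miR-181c-3p and miR-181d-5p, where 10.7% of all compared miRNAs were higher and 22.8% lower with no overlap. Scaled to all features, the family's level overlapped between the genotypes, at 11871, 11774 and 10216 CPM in Dicer1-ifKO, against 10629, 11678 and 12806 CPM in WT. All other miRNAs together had 42709, 38857 and 39417 CPM in Dicer1-ifKO, against 44165, 47571 and 54624 CPM in WT. Their groups did not overlap (log2 -0.27, exact permutation p = 0.1). With the counts of all features as the denominator, the genotypes differed in the family's share by 0.0019 percentage points.

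Ratios within a library do not depend on depth or scaling, and 9 were compared between the genotypes. The clearest was that of the miR-181c arms. miR-181c-5p exceeded miR-181c-3p by 22.9, 25.3 and 25.4 times in Dicer1-ifKO replicates 1, 2 and 3, against 17.3, 17.0 and 17.1 times in WT replicates 1, 2 and 3. The groups did not overlap, with a log2 difference of 0.52 ± 0.050 (SE). That SE rests on the spread of 3 libraries per genotype alone. The limma fit over 137 arm pairs, given below, had an SE of 0.13 for the same arms. Of those pairs 29.9% had no overlap. The exact permutation p was 0.1, the smallest possible, and 0.45 when adjusted over the 9 ratios. Leaving out any library kept the log2 difference between 0.49 and 0.57, with no overlap. The second ratio with no overlap was that of the chromosome 8 neighbours: miR-181c-5p exceeded miR-181d-5p by 14.2, 16.5 and 15.7 times in Dicer1-ifKO, against 11.8, 11.3 and 10.5 times in WT (log2 difference 0.47 ± 0.082 SE, exact permutation p = 0.1 and 0.45 adjusted). Both ratios have the counts of miR-181c-5p as numerator, so they are not independent of each other.

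The other ratios overlapped between the genotypes. The 5p arm of miR-181a exceeded its 3p arms by 176 ± 3.16 times in Dicer1-ifKO and 168 ± 6.73 times in WT (SD, n = 3 each). miR-181b-5p exceeded its 3p arms by 694 ± 132 times in Dicer1-ifKO and 972 ± 178 times in WT, with 3p counts that were low in every library. The ratio of miR-181a-5p to miR-181b-5p was 18.7 ± 1.504 in Dicer1-ifKO and 16.7 ± 2.02 in WT. The summed 5p arms of the miR-181a and miR-181b hairpins stood at 31.0 ± 1.11 times those of the chromosome 8 hairpins in Dicer1-ifKO and at 31.2 ± 3.40 times in WT. For miR-181d the ratio was 607 ± 339 in Dicer1-ifKO and 479 ± 107 in WT, from 3p counts of 1 to 3. The 3p arms of the 2 miR-181b hairpins were compared with 1 count added to each, and their mean log2 ratio was 4.22 in Dicer1-ifKO and 4.33 in WT.

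To set the miR-181c arms beside other hairpins, the log2 ratio of the 5p to the 3p arm was also fitted with limma for all 137 arm pairs with at least 10 counts per arm and library on average, a test chosen after the ratio had been seen. Of these pairs 2.92% were called at an adjusted p of 0.05, and 29.9% had no overlap between the groups. The miR-181c pair, with a change of 0.52 ± 0.13 (SE, 95% interval 0.23 to 0.80), ranked 5 by its p and did not pass (limma adjusted p = 0.051). Left out in turn, single libraries gave adjusted p-values from 0.040, without Dicer1-ifKO replicate 1, to 0.19 by limma. The pairs of miR-181a-5p with miR-181a-1-3p (0.11) and with miR-181a-2-3p (-0.02) and that of miR-181b-5p with miR-181b-1-3p (-0.46) were not called. By the WT ratio itself these 3 pairs ranked 15, 10 and 8 of the 137 in that order, and the miR-181c pair ranked 33. The 5p counts of miR-181a and miR-181b are sums over both hairpins, so their ratios to the arm of a single hairpin are too high.

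**Figure D4:**
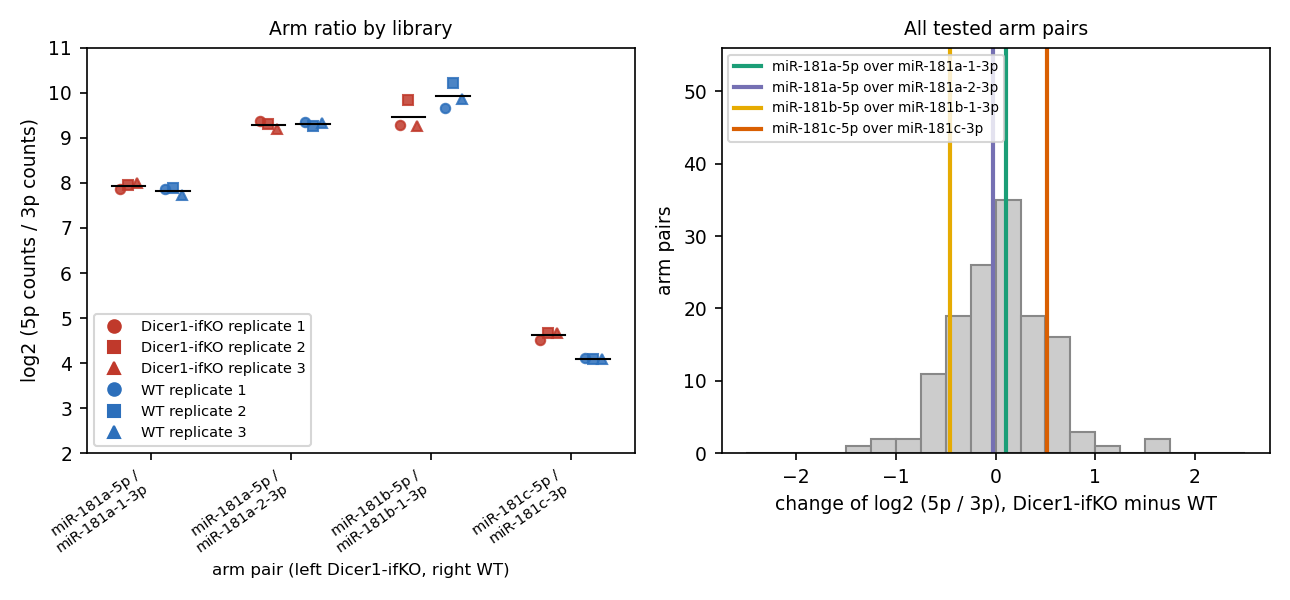
Left, log2 ratio of 5p to 3p counts for 4 miR-181 arm pairs in each library (Dicer1-ifKO left, WT right, line at the mean). Right, change of that ratio, Dicer1-ifKO minus WT, over all 137 arm pairs as a histogram, with the miR-181 pairs as coloured lines. The miR-181c pair lies at 4.51 to 4.67 in Dicer1-ifKO and at 4.09 to 4.11 in WT, a change of 0.52.

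The miRNAs outside the family whose profile over the 6 libraries was nearest to that of miR-181a-5p were miR-30d-5p, miR-130a-3p, miR-92a-3p, miR-130b-5p and miR-23a-3p. Nearness was measured as the root mean square distance between log2 CPM values centred on their own mean, over 342 miRNAs with at least 50 counts per library on average, and was 0.06 to 0.09 for these 5 against a median of 0.25. Their log2 changes lay between -0.13 and 0.09. The distance includes the difference between the genotypes, so changes near that of miR-181a-5p follow from the choice. Ranks of the members by this distance depend on their log2 changes in the same way. Within the family, miR-181a-2-3p ranked 2 among the 342, miR-181a-1-3p 5, miR-181c-5p 10 and miR-181b-5p 51, while miR-181c-3p ranked 184 and miR-181d-5p 190.

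The libraries held 2268563 to 2691646 miRNA counts in Dicer1-ifKO and 2678070 to 3124925 in WT. The Dicer1 span had 37, 32 and 35 counts in Dicer1-ifKO replicates 1, 2 and 3, against 45, 33 and 47 in WT replicates 1, 2 and 3, and these fragments of the whole gene do not check the recombined exon. Of 13 genes of the miRNA pathway, among them Drosha, Dgcr8 and the Argonautes, 5 had enough counts to be tested, and 0 fell or rose by edgeR or DESeq2, with 0 at an unadjusted p of 0.05. By edgeR 0.8% of all 6502 tested features were called, and at an unadjusted p of 0.05, 417 were lower and 86 higher. Like those of Dicer1, these counts are small RNA fragments of whole gene spans and do not measure the mRNAs. Of 5 miRNAs of brain and neurons 0 were called by edgeR or DESeq2, against 6.88% of all tested miRNAs by edgeR. Of these 5, 1 was at an unadjusted p of 0.05, and their median log2 change was -0.19. Among all 509 tested miRNAs, 163 were lower and 10 higher at that p by edgeR. Among them miR-128-3p averaged 1085 CPM in Dicer1-ifKO and 1503 CPM in WT (log2 -0.47), and miR-9-5p averaged 1019 CPM in Dicer1-ifKO and 1013 CPM in WT. Of 3 miRNAs of liver and muscle, miR-122-5p had 2 counts in all and miR-1a-3p 23. The third, miR-133a-3p, had 1467 counts, a mean of 5.23 CPM in Dicer1-ifKO and 5.11 CPM in WT. miR-181 is also made by lymphocytes and other leukocytes. The summed level of 5 miRNAs of microglia and leukocytes ran from 187 to 205 CPM in Dicer1-ifKO and from 148 to 181.8 CPM in WT, of which miR-155-5p and miR-223-3p had 27 and 50 counts over all libraries. Most of the sum came from miR-150-5p, at a mean of 173 CPM in Dicer1-ifKO and 147 CPM in WT (log2 0.24, edgeR adjusted p = 0.82). Taken singly, 2.36% of all tested miRNAs were higher with no overlap between the groups. Of the 3 tested members of the microglia and leukocyte list 0 were called by edgeR or DESeq2. At an unadjusted p of 0.05 there was 1, miR-142-3p, which was higher (log2 1.11) with only 103 counts over all libraries. By edgeR 10 of all 509 tested miRNAs were higher at that p. The part of such cells in the miR-181 levels was not tested. The lists for oligodendrocytes, red cells, vessels and choroid plexus likewise had 0 members called by edgeR or DESeq2, against 6.88% of all tested miRNAs by edgeR. Of the 2 vessel miRNAs listed only miR-143-3p occurred among the deposited names. The name miR-126-3p did not occur there, which says nothing about the level of miR-126. The choroid plexus list was 1 miRNA. At an unadjusted p of 0.05 these lists had 0 members, apart from miR-204-5p of the choroid plexus (log2 -0.57, edgeR adjusted p = 0.066).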

How the data were processed

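Small RNA of mouse hippocampus was sequenced on an Illumina instrument in 3 Dicer1-ifKO and 3 WT libraries, each from the pooled RNA of 3 mice. The design text names 12 mice per genotype, whereas the pools account for 9. The authors deposited raw counts per annotated feature for each library, and beside them a normalized signal that is the same count divided by 1 factor per library, per the file headers and the values. BWA, SAMtools 0.1.18, CASAVA 1.8.2 and DESeq2 are named, with GRCm38 (mm10), per the submitters' processing notes. For the counter and its treatment of reads with several alignments, no method is stated. The values show that a read was counted in every feature that holds it, on either strand.

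From the counts, 13611 rows identical in all libraries were removed and the loci of each mature miRNA were summed, which left 51741 features with counts. These were filtered with filterByExpr (minimum 10), scaled with TMM over all 6502 tested features and tested with edgeR 4.0.16 (R 4.3.3) by its quasi-likelihood test, with Benjamini-Hochberg adjustment and a threshold of 0.05. CPM is therefore per 1000000 feature counts, not reads, and reads counted in several features enter it more than once. Shares of miRNA counts used each mature miRNA and each place once (overlap of at least 10 bases). Shares and ratios were compared by a two-sided exact permutation of the 6 libraries. The ratio of the miR-181b 3p arms has counts of 0, so 1 count was added. The limma 3.58.1 test of arm ratios (0.5 added to each count) was chosen after the data had been seen. The fit was tested on simulated data. Alternatives were other scalings, DESeq2 1.42.0, no filter, miRNA rows alone, rows as deposited, the replicate block and each library left out.

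Libraries held 55101387 to 77428956 summed feature counts. The 95% intervals come from the edgeR and limma fits and include the spread between libraries, whereas floors (3 counts) cover counting error only. The named miRNAs were all members, the 9 most abundant others in WT, the 5 nearest profiles and the fixed marker lists; the members and lists were chosen with earlier results of these data known. The submitters call the libraries biological replicates.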

Additional observations from a re-analysis of the deposited data

How the results depend on the processing

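Of the miR-181 members 0 were called in either direction under all 15 alternatives. miR-181c-3p and miR-181d-5p stayed below 0 and miR-181b-1-3p above 0 in all 15. Against 35 miRNAs called lower, library totals alone gave 15, TMM on the miRNA rows 7, the replicate block 3, and leaving out 1 library 1 (without Dicer1-ifKO replicate 2) to 63 (without WT replicate 1). miRNA rows alone gave 17 called higher, against 0. TMM on the miRNA rows moved the median log2 change of all miRNAs from -0.25 to 0.015 and that of other features from -0.03 to 0.22. It raised the log2 change of every tested member as well, and their median went from -0.09 to 0.17. The members near 0 therefore changed sign with the scaling, and why the scalings differ was not tested. With TMM on the miRNA rows the log2 changes were 0.22 for miR-181a-5p, 0.050 for miR-181b-5p, 0.25 for miR-181c-5p, 0.12 for miR-181a-1-3p and 0.24 for miR-181a-2-3p, and with miRNA rows alone 0.22, 0.051, 0.25, 0.12 and 0.24 in the same order. For miR-181a-5p they were 0.0020 with RLE scaling and with DESeq2, 0.015 with library totals and 0.0021 with the authors' size factors. For miR-181c-5p they were 0.017 with RLE scaling and DESeq2, 0.029 with totals, 0.015 with the authors' factors and 0.013 with no filter. For miR-181a-2-3p they were 0.020 with RLE scaling, 0.021 with DESeq2, 0.036 with totals, 0.020 with the authors' factors and 0.016 with no filter.

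Leaving out 1 library gave log2 changes of -0.092 to 0.064 for miR-181a-5p, -0.33 to 0.0051 for miR-181b-5p, -0.11 to 0.18 for miR-181c-5p, -0.22 to 0.011 for miR-181a-1-3p and -0.092 to 0.070 for miR-181a-2-3p, each highest without WT replicate 3. It gave log2 ratio differences of -0.20 to 0.53 for the miR-181d arms (-0.027 with 1 count added), -0.71 to 0.51 for the miR-181b 3p arms, -0.096 to 0.058 for the summed 5p arms and -0.065 to 0.025 for miR-181a-5p over miR-181a-2-3p, all with few counts or a value near 0. The family's difference in share was 1.8 to 3.14 percentage points.

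Replicate numbers are shared by the genotypes, but same-numbered libraries did not deviate together (r = -0.03, 0.33 and -0.36 over 361 miRNAs), so they share only a number. With the replicate block the miR-181c arm ratio changed by 0.52 as before, at a limma adjusted p of 0.025 instead of 0.051, and with 1 library left out by 0.49 to 0.56. The arm pairs called were 4, against 11 with the block and 1 to 8 with 1 library left out.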

Other observations

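Over the 137 arm pairs, the 4 called by limma were those of miR-139, miR-540, miR-672 and miR-7068, of which 2 had a higher and 2 a lower 5p to 3p ratio in Dicer1-ifKO. These names were picked with their values known. The more abundant arm gained on the other in 68 of the 137 pairs (49.6%), and the median size of a change was 0.27 on the log2 scale.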
